A study of Mus musculus with 6 samples.

Results

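Guanylate-binding proteins (GBPs) and immunity-related GTPases (IRGs) are families of GTP-hydrolysing proteins that mouse cells make in response to interferon. The 10 rows described here are those of the deposited gene table, which lists 35275 genes, named Gbp2, Gbp3, Gbp4, Gbp5, Gbp6, Gbp7, Gbp8, Gbp9, Igtp and Irgm1. They were chosen by name, and all 10 were found. The libraries were made from splenic B cells, 1 group from wild-type (WT) mice and the other from mice with an altered allele of CD40 ligand named CD40LΔ5, with 3 libraries per genotype. Both groups were C57BL/6 mice aged 6 to 8 weeks that had been injected with sheep red blood cells, a T cell-dependent antigen, and both were sampled on day 8. B cells were enriched with a magnetic pan-B cell kit, so other spleen cells may remain in small amounts. The labels give neither the sex of the mice nor whether each library came from its own mouse, and p-values measure only the spread between these libraries.

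Interferon-gamma binds the receptor chains Ifngr1 and Ifngr2 and signals through the kinases Jak1 and Jak2. The signal reaches genes through a DNA element called GAS and through Irf1, which binds the interferon-stimulated response element (ISRE). Type I interferons act on another receptor and also reach genes through the ISRE, with Irf9 among the factors that bind it, so GBP and IRG genes can respond to either kind of interferon. GBPs resemble dynamins: they assemble into coats on vacuoles that hold bacteria or parasites and on bacteria in the cytosol. Irgm1 and Igtp (also called Irgm3) belong to the IRGM branch, which sits on the cell's own membranes and holds the effector IRGs in their inactive state there.

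The members lie in 3 places of the genome. Coordinates are those of the deposited table, which match GRCm38. On chromosome 3, on the plus strand, stand Gbp7 (chr3:142530338-142550083), Gbp3 (chr3:142560052-142573209) and Gbp2 (chr3:142620602-142638008), along with the row named Gbp5 (chr3:142496934-142619179). On chromosome 5, on the minus strand, stand Gbp8 (chr5:105014153-105139540), Gbp9 (chr5:105078394-105139539), Gbp4 (chr5:105115767-105139586) and the row named Gbp6 (chr5:105215699-105293699). On chromosome 11, Irgm1 is on the minus strand (chr11:48861968-48871683) and Igtp on the plus strand (chr11:58199556-58207591).

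Several of these rows do not stand for 1 gene. The identifier of the row named Gbp5 (ENSMUSG00000040264) is called Gbp2b in GENCODE M21, where Gbp5 has another identifier that is not a row of the deposited table. The row begins at the RefSeq start of Gbp5 and ends where Gbp2b ends, and its deposited length of 3021 bases exceeds the 2823 exon bases of Gbp2b in GENCODE M21 by 198. The row thus spans both genes. Gbp5 has 6637 exon bases in GENCODE M21, so a row of this length cannot hold all exons of both. How much of Gbp5 it holds is not known, and the shares of the 2 genes cannot be told apart. The identifier of the row named Gbp6 (ENSMUSG00000079362) is called Gm43302 in GENCODE M21, a model that runs through both Gbp10 and Gbp6, and 81.6% of its exon bases lie in exons of those 2 genes. The row thus joins parts of Gbp6 and Gbp10. Gbp6 alone has 5954 exon bases in GENCODE M21, more than the deposited length of 4314 bases, so the row cannot hold all exons of both. Gbp4, Gbp8 and Gbp9 share a first exon stretch of 60 or 61 bases, and Igtp shares 162 exon bases with Irgm2, a further IRGM gene. Gbp7 shares 637 exon bases (11.3% of its own) with the processed pseudogene Gm43802, which is not a row of the deposited table.

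Near-identical sequence adds to this for some members. Of all 50-base words in the GENCODE M21 transcripts of Gbp8, 18.1% also occurred in another GBP gene, and of those of Igtp 11.8% occurred in Irgm2. The share was between 0.0% (Irgm1) and 8.0% (Gbp9) for the other members except the merged Gbp6 row. How reads that fit several genes were counted is not given in the sources used here, so values of Gbp8, Gbp6, Gbp5 and Igtp are uncertain in this respect.

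The RefSeq promoter table (GRCm38.p6) holds 6 of the 10 members. Its windows of 250 bases before to 50 bases after the start were searched for the ISRE core, written as 2 boxes GAAA with any 2 bases between them (TTTC, any 2 bases and TTTC on the other strand), and for the GAS element TTCNNNGAA, which reads alike on both strands. The stretches around the ISRE core are shown because this is the element through which either kind of interferon signal can reach these genes. Capitals mark the matches of the ISRE core alone, and each stretch reads 5′ to 3′ on the strand of its gene. They lie at chr3:142620562-142620631 (Gbp2), chr3:142559972-142560041 (Gbp3), chr3:142496739-142496808 (Gbp5), chr3:142530253-142530322 (Gbp7), chr11:58199486-58199555 (Igtp) and, on the minus strand, chr11:48871428-48871457 (Irgm1).
Gbp2: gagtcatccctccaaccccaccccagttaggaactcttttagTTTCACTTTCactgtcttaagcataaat
Gbp3: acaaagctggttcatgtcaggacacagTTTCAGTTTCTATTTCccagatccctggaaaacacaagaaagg
Gbp5: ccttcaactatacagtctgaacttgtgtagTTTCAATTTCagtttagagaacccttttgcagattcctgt
Gbp7: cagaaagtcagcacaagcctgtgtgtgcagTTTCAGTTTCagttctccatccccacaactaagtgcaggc
Igtp: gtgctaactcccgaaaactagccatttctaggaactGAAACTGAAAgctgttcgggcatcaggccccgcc
Irgm1: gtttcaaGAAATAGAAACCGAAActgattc

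Each of the 6 genes had a window with the ISRE core, against 3.44% of the 32851 windows in the table. Gbp3 and Irgm1 each had a pair of overlapping matches. The match began 59 bases before the start in Gbp2, 45 in Gbp3, 53 in Gbp7, 34 in Igtp and 30 in Irgm1, and further away, 165 bases before it, in Gbp5. Gbp2b, whose identifier the row named Gbp5 carries, is not among the 6 and had a match that began 137 bases before its start. These distances are from the RefSeq start of each window. In GENCODE M21 the last 30 bases of the Gbp2 stretch, 16 bases of the Gbp3 stretch and all 30 bases of the Irgm1 stretch lie in exons, so that part of this sequence can be transcribed, and the deposited start of Gbp2 and of Irgm1 lies before their matches. A further Gbp3 start in the table had no match of either motif. The GAS letters occurred in 3 of the 6 members, Gbp5, Gbp7 and Igtp, against 8.3% of all windows. The GAS match of Igtp lies within its printed stretch, in small letters. These are matches of letters only.

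The source of the grouping bears on every direction given here. The column names of the authors' deposited table of group means are MUT and WT. Its MUT column equals the mean of CD40LΔ5 replicate 2 and of WT replicates 1 and 2, as the labels name them (within 3.33e-08 FPKM). Its WT column equals the mean of CD40LΔ5 replicates 1 and 3 and of WT replicate 3. These are called the MUT set and the WT set of the table below. Only WT replicate 3 and CD40LΔ5 replicate 2 are thus placed alike by labels and table. Libraries are named here by their labels, and comparisons are given both by label and between these sets. Reads on genes numbered 24320080 to 27866611 per library, and the B cell gene Cd79a, which encodes a chain of the B cell receptor complex, was high in all 6 (1510 to 1999 FPKM).

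The GTPases were expressed at low to middle levels. FPKM divides by the deposited gene length, so the order of the members depends on these lengths. They were below the GENCODE M21 exon bases for some members, as for Gbp9 (3633 against 5173) and Irgm1 (3832 against 5810). For Gbp2 and Igtp the 2 lengths were equal. Gbp9 was the most abundant member, at a mean of 28.9 FPKM over the 6 libraries, which 77.5% of the tested genes did not exceed. It stood above Gbp3 (18.7 FPKM), the next in order, in all 6 libraries. Then followed Irgm1 (16.6 FPKM), Igtp (15.6 FPKM), Gbp5 (12.9 FPKM), Gbp4 (12.6 FPKM) and Gbp2 (10.2 FPKM). Neighbours in this stretch changed places between libraries: Irgm1 was above Igtp in 4 of 6 libraries, and Gbp5 was above Gbp4 in 4 of 6. Gbp2 was above Gbp7 (4.73 FPKM) in all 6, and Gbp7 was above the merged Gbp6 row (1.997 FPKM) in all 6. Gbp8 was lowest (1.76 FPKM), with an order to Gbp6 that held in only 3 of 6 libraries. These levels rest on 57 to 164 reads per library for Gbp8 and on 2174 to 4080 for Gbp9.

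**Figure D1:**
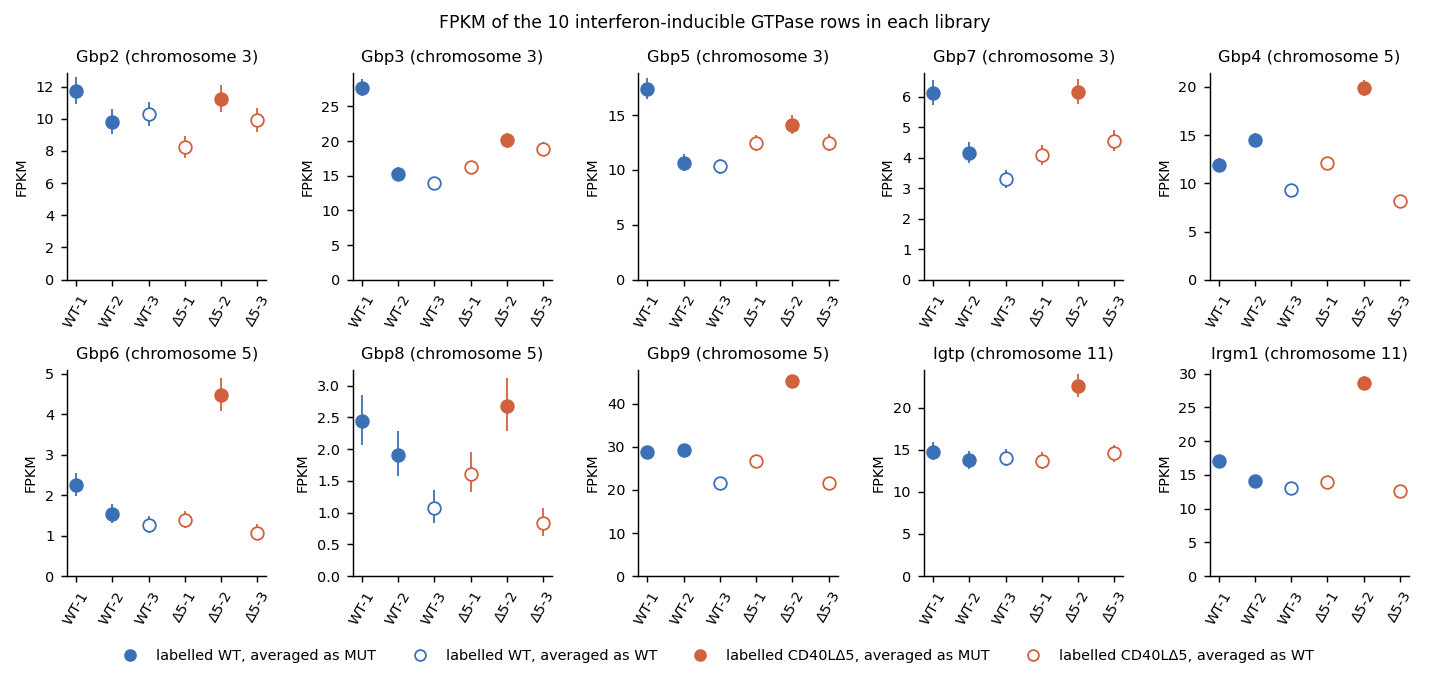
FPKM of each of the 10 rows (y axis, from 0) in each library (x axis; Δ5 is CD40LΔ5). Colour gives the label, filled symbols mark libraries averaged as MUT in the authors' table and open symbols those averaged as WT, and bars are 95% Poisson intervals that cover counting error only. CD40LΔ5 replicate 2 is highest for 7 rows and WT replicate 1 for 3.

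In the chromosome 5 group, CD40LΔ5 replicate 2 was the highest library for every member. Gbp9, a GBP of the chromosome 5 cluster, held 28.85, 29.2 and 21.7 FPKM in the WT libraries (replicates 1 to 3, in this order throughout) and 26.7, 45.2 and 21.6 FPKM in the CD40LΔ5 libraries. Gbp4, its neighbour, stood at 11.9, 14.5 and 9.30 FPKM in the WT libraries and at 12.1, 19.9 and 8.12 FPKM in the CD40LΔ5 libraries. For both genes the lowest library, CD40LΔ5 replicate 3, carries the same label as the highest.

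The 2 rows of lowest level in this cluster had the widest spread. The merged Gbp6 row stood at 2.24, 1.53 and 1.27 FPKM in the WT libraries and at 1.38, 4.48 and 1.07 FPKM in the CD40LΔ5 libraries. Gbp8 stood at 2.44, 1.91 and 1.08 FPKM in the WT libraries and at 1.62, 2.69 and 0.832 FPKM in the CD40LΔ5 libraries. The highest library exceeded the lowest 4.17-fold for Gbp6, 3.23-fold for Gbp8, 2.45-fold for Gbp4 and 2.10-fold for Gbp9. For Gbp6 the 95% Poisson interval of CD40LΔ5 replicate 2 (4.09 to 4.90 FPKM) lay apart from that of WT replicate 1 (1.97 to 2.54 FPKM), the second highest. For Gbp8 the same intervals overlapped, at 2.29 to 3.13 and 2.07 to 2.86 FPKM.

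In the chromosome 3 group, WT replicate 1 was as high or higher. Gbp3 stood at 27.7, 15.2 and 13.96 FPKM in the WT libraries and at 16.2, 20.1 and 18.9 FPKM in the CD40LΔ5 libraries. The row named Gbp5, which spans Gbp5 and Gbp2b, stood at 17.4, 10.7 and 10.3 FPKM in the WT libraries and at 12.4, 14.1 and 12.5 FPKM in the CD40LΔ5 libraries. In both, WT replicate 1 stood above the other 5 libraries while WT replicates 2 and 3 were the 2 lowest.

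Gbp2, a GBP that carries a lipid anchor for membranes, had the narrowest range of all members (1.42-fold). It stood at 11.7, 9.79 and 10.3 FPKM in the WT libraries and at 8.22, 11.3 and 9.91 FPKM in the CD40LΔ5 libraries. Gbp7 stood at 6.13, 4.16 and 3.30 FPKM in the WT libraries and at 4.09, 6.16 and 4.55 FPKM in the CD40LΔ5 libraries. Its values in WT replicate 1 and CD40LΔ5 replicate 2 were nearly equal, at a ratio of 1.00.

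On chromosome 11, both IRGM genes had 1 library apart from the rest. Igtp stood at 14.8, 13.8 and 14.1 FPKM in the WT libraries and at 13.7, 22.6 and 14.6 FPKM in the CD40LΔ5 libraries. Irgm1 stood at 16.99, 14.1 and 13.1 FPKM in the WT libraries and at 13.98, 28.6 and 12.6 FPKM in the CD40LΔ5 libraries. Without CD40LΔ5 replicate 2, Igtp lay between 13.7 and 14.8 FPKM in the other 5 libraries.

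The members did not all share 1 profile over the libraries. In CD40LΔ5 replicate 2 the mean of the centred log2 values was 0.69 for the 4 chromosome 5 rows, 0.67 for the 2 chromosome 11 genes and 0.19 for the 4 chromosome 3 rows. In WT replicate 1 the same means were 0.15, 0.02 and 0.38. Between these libraries the ratio of CD40LΔ5 replicate 2 to WT replicate 1 was 1.10 (Gbp8) to 1.998 (Gbp6) on chromosome 5, 1.53 (Igtp) and 1.68 (Irgm1) on chromosome 11, and 0.725 (Gbp3) to 1.00 (Gbp7) on chromosome 3. This split by chromosome was noticed in the values and was not tested. All 10 members had their highest value in 1 of these 2 libraries, 7 in CD40LΔ5 replicate 2 and 3 in WT replicate 1. Among all 11252 genes tested, 30.1% were highest in the first and 18.4% in the second.

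**Figure D2:**
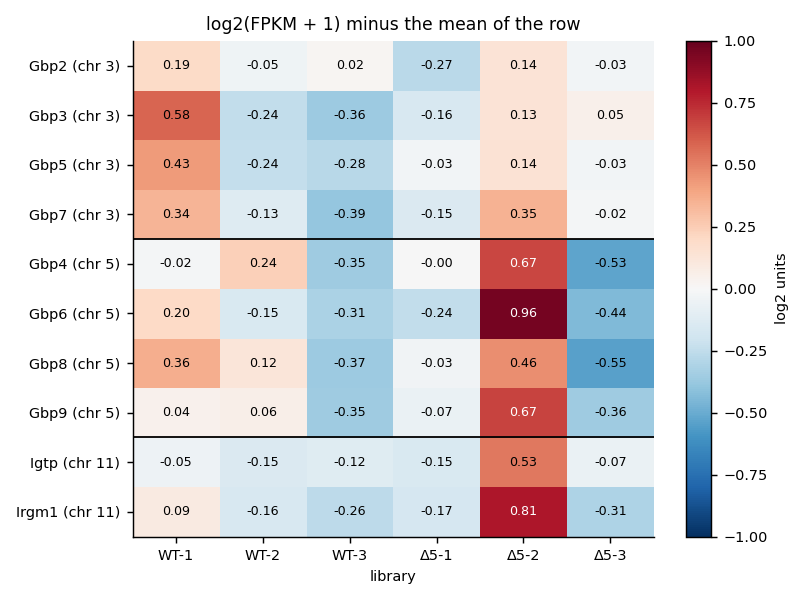
Each cell is log2(FPKM + 1) of a row minus its mean over the 6 libraries (colour scale and printed value, in log2 units), with rows ordered by chromosome and black lines between chromosomes. Rows of chromosomes 5 and 11 are highest in CD40LΔ5 replicate 2, up to 0.96 for Gbp6, and Gbp3 and Gbp5 are highest in WT replicate 1.

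By label, the values of the members did not separate CD40LΔ5 from WT. Log2 differences are those of log2(FPKM + 1), a scale on which changes of low genes come out too small. On this log2 scale the mean was higher in CD40LΔ5 for 8 of the 10 (against 55.5% of all genes tested), and Gbp2 and Gbp8 were lower. Counts of higher and lower genes, here and below, are made on this scale. In FPKM the mean of Gbp3 was lower in CD40LΔ5 (18.41) than in WT (18.97), though its log2 difference was 0.02. Irgm1 averaged 18.4 ± 8.87 FPKM in CD40LΔ5 against 14.7 ± 2.03 FPKM in WT (n = 3 per label, ± SD), a log2 difference of 0.22 ± 0.29 (SE). Igtp measured 16.96 ± 4.90 against 14.2 ± 0.522 FPKM, a log2 difference of 0.21 ± 0.18. Gbp9 measured 31.2 ± 12.4 against 26.6 ± 4.23 FPKM, a log2 difference of 0.17 ± 0.27. These differences were smaller than, or about as large as, their standard errors.

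The remaining log2 differences by label ran from -0.11 (Gbp2) to 0.18 (Gbp6), and the median of the 10 was 0.11, beside 0.01 over all genes tested. With limma none of the 10 passed an adjusted p of 0.05 (all at 0.999993), and none had an unadjusted p under 0.05. Of all genes tested, 0% were called (1.24% at an unadjusted p under 0.05). For no member did the labelled groups lie apart, where 2.98% of all genes were higher without overlap and 1.32% lower. The count of 8 rested on 1 library: without CD40LΔ5 replicate 2 only 1 member had a higher mean, and the median log2 difference was -0.13. It was 4 of 10 without WT replicate 3, with a median of -0.05. For Gbp3 the sign by label also turned under median ratio scaling, from 0.02 to -0.01.

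By the sets of the authors' table, all 10 members had higher means in the MUT set, and none passed the test over all genes. Gbp8 averaged 2.34 ± 0.398 FPKM in the MUT set against 1.17 ± 0.401 FPKM in the WT set (n = 3 each, ± SD; log2 difference with its SE 0.63 ± 0.17; limma adjusted p = 0.343). Gbp9 measured 34.4 ± 9.36 against 23.3 ± 2.92 FPKM (log2 difference 0.52 ± 0.18; limma adjusted p = 0.356). The merged Gbp6 row measured 2.75 ± 1.54 against 1.24 ± 0.156 FPKM (log2 difference 0.67 ± 0.27; limma adjusted p = 0.371), and Irgm1 19.9 ± 7.67 against 13.2 ± 0.702 FPKM (log2 difference 0.50 ± 0.23; limma adjusted p = 0.407). For these 4 members every library of the MUT set lay above every library of the WT set, a pattern that 12.1% of all genes tested showed in this direction.

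For the other 6 members the sets overlapped. Gbp4 measured 15.5 ± 4.08 against 9.85 ± 2.06 FPKM (log2 difference 0.59 ± 0.20; limma adjusted p = 0.356), with WT replicate 1 (11.9 FPKM) just under CD40LΔ5 replicate 1 (12.1 FPKM). The smaller log2 differences were 0.37 (Gbp7), 0.31 (Gbp3), 0.22 (Gbp5), 0.22 (Igtp) and 0.19 (Gbp2), with limma adjusted p from 0.392 to 0.566. The median over the 10 was 0.44, beside 0.05 over all genes tested, of which 62.0% had a higher value in MUT. At an unadjusted p under 0.05 stood 4 members, Gbp4, Gbp6, Gbp8 and Gbp9, all of the chromosome 5 cluster, beside 9.39% of all genes in this direction. After adjustment 0.0267% of all genes were called. All 10 members stayed higher in MUT whichever library was left out. The count of members without overlap went from 4 to 9 without WT replicate 2, and the median log2 difference was 0.30 without CD40LΔ5 replicate 2.

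**Figure D3:**
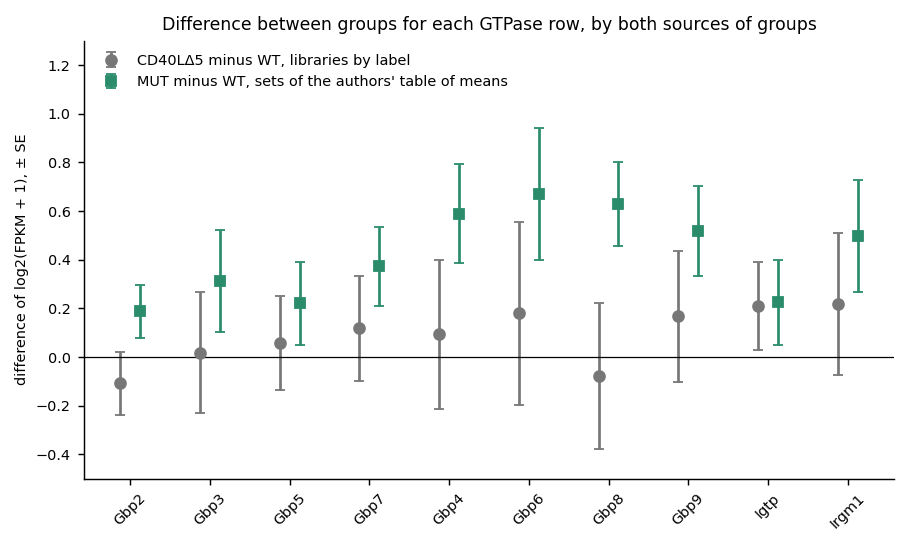
Difference of log2(FPKM + 1) for each member with its standard error (y axis), for CD40LΔ5 minus WT by label (circles) and MUT minus WT by the authors' table (squares). The label differences lie between -0.11 and 0.22, and the table differences between 0.19 and 0.67. Both use the same 6 libraries.

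The 2 libraries that both sources place alike can be set side by side without a test. CD40LΔ5 replicate 2 exceeded WT replicate 3 for all 10 members. The ratio was 3.53 for Gbp6, 2.50 for Gbp8, 2.19 for Irgm1, 2.14 for Gbp4 and 2.08 for Gbp9, and 1.10 for Gbp2, the smallest. It was above 1.5 for 7 members, as it was for 13.9% of the genes tested, and the median ratio over these genes was 1.08. This pair is 1 library of each genotype, and it includes the library in which most members were highest.

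Other GTPases of the same families were mostly highest in the same library as the members. Of 23 on the list 20 were found under their names and 15 tested. None was called in either comparison, 14 of 15 had higher means in MUT (median log2 difference 0.21), 14 of 15 had higher means in CD40LΔ5 by label (median 0.19), and 14 of 15 had their highest value in CD40LΔ5 replicate 2. Mx1, a dynamin-like GTPase, stood at 4.91, 5.83 and 2.31 FPKM in the WT libraries and at 3.29, 15.1 and 2.97 FPKM in the CD40LΔ5 libraries (log2 difference between the sets 1.18 ± 0.36 SE). Mx2 (log2 difference between the sets 1.00), Tgtp2 (0.67) and Gm12250, the effector IRG also called Irgb10 (0.64), were likewise higher in every library of the MUT set than in any of the WT set. Irgm2, which shares exon bases with Igtp and was named for that overlap, stood at 8.07, 6.55 and 6.11 FPKM in the WT libraries and at 7.14, 12.3 and 6.29 FPKM in the CD40LΔ5 libraries. Gbp11 held at most 2 reads in any library, under the 3 that a count of 0 allows.

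The ligand of the pathway was near the detection limit. Ifng, which encodes interferon-gamma and is made by T and natural killer cells, held 1 to 7 reads per library. Its means were 0.126 ± 0.0921 FPKM in CD40LΔ5 and 0.139 ± 0.0104 FPKM in WT by label (SD, n = 3; exact two-sided permutation p = 0.8, where 3 against 3 cannot go below 0.1). By the table they were 0.133 ± 0.00324 and 0.131 ± 0.0933 FPKM (exact p = 1). The type I interferon genes Ifnb1 and Ifna4 had 0 reads in all 6 libraries, which allows up to 0.164 and 0.220 FPKM per library. These are levels in the B cell preparation and not in the spleen.

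The receptors and kinases varied little. Ifngr1, the ligand-binding chain, ranged from 40.8 to 55.1 FPKM and Ifngr2, the second chain, from 21.9 to 27.2 FPKM over the 6 libraries. Jak1 ranged from 103 to 132 FPKM and Jak2 from 23.7 to 31.5 FPKM. Irf1, which binds the ISRE, stood at 48.5, 42.7 and 45.7 FPKM in the WT libraries and at 45.9, 63.4 and 42.3 FPKM in the CD40LΔ5 libraries, with sets that overlapped (log2 difference 0.19 ± 0.14 SE).

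Other regulators of the pathway are given by their range over the 6 libraries. Irf8, which B cells express at a high level, ranged from 150 to 174 FPKM, and Irf2, which competes with Irf1, from 62.8 to 75.3 FPKM. The feedback inhibitors Socs1 (4.53 to 6.74 FPKM) and Socs3 (4.94 to 7.45 FPKM) and the phosphatase Ptpn2 (14.8 to 16.8 FPKM) had log2 differences between the sets of 0.03, 0.03 and 0.05. Pias1, a further inhibitor of the pathway, was lower in every library of the MUT set than in any of the WT set (log2 difference -0.21 ± 0.07 SE; limma adjusted p = 0.356), a direction without overlap that 4.79% of all genes showed. Of the 12 tested genes of this list, none was called in either comparison. Between the sets, 7 were higher and 5 lower in MUT (median log2 difference 0.03), and by label 10 were higher and 2 lower (median 0.05).

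Other interferon-gamma targets were mixed. Of 23 on the list 15 were tested and none was called in either comparison. Between the sets, 13 of 15 had higher means in MUT (median log2 difference 0.13), and by label 9 of 15 in CD40LΔ5 (median 0.01). Serpina3g, a protease inhibitor of activated lymphocytes, stood at 50.01, 33.7 and 28.9 FPKM in the WT libraries and at 22.8, 45.8 and 26.2 FPKM in the CD40LΔ5 libraries (log2 difference between the sets 0.70 ± 0.16 SE; limma adjusted p = 0.343). It was highest in WT replicate 1, as were Gbp3 and Gbp5. Most of the list was not: 9 of the 15 were highest in CD40LΔ5 replicate 2 and 3 in WT replicate 1. Of all genes tested, 30.1% and 18.4% were highest in these libraries. Nlrc5, the activator of MHC class I genes, had a log2 difference between the sets of 0.51, Psme1, a proteasome activator subunit, 0.31, and Casp1, the inflammasome protease, 0.25. Ciita, the activator of MHC class II genes, was the other way round, at 94.1 to 102 FPKM in the MUT set and 102 to 121 FPKM in the WT set. The chemokine genes Cxcl9 and Cxcl10 held 3 to 47 and 6 to 16 reads per library. Cxcl9 had 47 reads in WT replicate 1 and 23 in CD40LΔ5 replicate 2, the next. Cxcl10 had nearly equal counts in WT replicate 1 (16), CD40LΔ5 replicate 2 (15) and CD40LΔ5 replicate 3 (14).

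Type I interferon targets had a larger median difference between the sets than the GTPases, which was not tested. All 21 tested were highest in CD40LΔ5 replicate 2, and all 21 had higher means in the MUT set (median log2 difference 0.67, beside 0.44 for the 10 members), with 20 of 21 higher in CD40LΔ5 by label (median 0.20). None was called in either comparison. Rtp4 had a log2 difference between the sets of 1.37, Oas2, which senses double-stranded RNA, of 1.28, Ifit3 of 1.26 and Usp18, which removes the ubiquitin-like Isg15, of 1.06. For the regulators, Irf7 was at 1.15, Irf9 at 0.51, Stat2 at 0.29 and Irf3 at 0.25. In WT replicate 1 the median centred log2 value was 0.10 for the type I targets, 0.20 for the 10 members and 0.38 as the mean of the chromosome 3 rows.

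**Figure D4:**
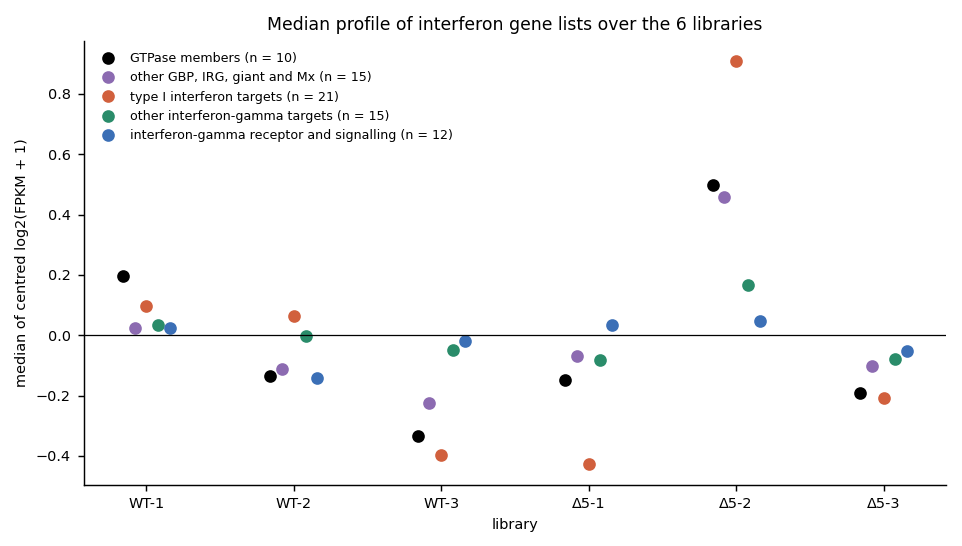
Median over the tested genes of each list of log2(FPKM + 1) minus the gene's mean (y axis, log2 units) in each library (x axis; Δ5 is CD40LΔ5). In CD40LΔ5 replicate 2 the type I interferon targets stand at 0.91, the 10 GTPases at 0.50, the other GTPases at 0.46, the other interferon-gamma targets at 0.17 and the receptor and signalling genes at 0.05.

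Partners of the GTPases at vacuoles and inflammasomes did not follow as a group. GBPs and IRGs are loaded onto vacuoles with the help of autophagy proteins and, with caspase-11 (Casp4) and Aim2, feed into the cleavage of Gsdmd, the pore-former of pyroptosis. Of 20 on the list 19 were tested and none was called in either comparison. Between the sets, 13 were higher and 6 lower in MUT (median log2 difference 0.06, beside 0.05 over all genes tested). Gsdmd stood at 30.9, 34.4 and 21.6 FPKM in the WT libraries and at 29.0, 37.9 and 22.0 FPKM in the CD40LΔ5 libraries, without overlap between the sets (log2 difference 0.50 ± 0.13 SE; limma adjusted p = 0.343). Gabarapl1 (0.40) was higher, and Lgals3 (-0.43) and Map1lc3a (-0.32) lower in the MUT set without a call.

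Other cell types differed between the same libraries, and in bulk RNA fewer cells of a type and less RNA per cell cannot be told apart. The summed level of 12 monocyte and macrophage genes was 364 FPKM in WT replicate 1, in which Gbp2, Gbp3 and Gbp5 were highest, and 129 to 215 FPKM in the other 5. All 11 tested genes of this list had higher means in the MUT set (median log2 difference 0.60) and lower means in CD40LΔ5 by label (median -0.31). C1qa, a complement gene of macrophages, was at 48.2 FPKM in WT replicate 1 and at 8.96 to 19.1 FPKM elsewhere. In CD40LΔ5 replicate 2 the macrophage sum was 177 FPKM, within the range of the other libraries, while most GTPases were highest there. The summed level of 10 natural killer and cytotoxic genes was 57.9, 53.4 and 63.4 FPKM in the MUT set and 33.5, 27.2 and 38.8 FPKM in the WT set, which is the split in which all 10 GTPases had higher means. T cell genes split in the same way for the most part: 6 of 8 tested had higher means in the MUT set (median log2 difference 0.25), and Cd3d, Cd3e, Cd3g, Cd4 and Cd8b1 were higher in each of its libraries than in any of the WT set. Cd3d, a chain of the T cell receptor complex, was at 3.58, 5.00 and 4.66 FPKM in the MUT set and at 2.38, 2.53 and 2.47 FPKM in the WT set. The sum over the 12 T cell genes, 27.6 to 35.6 FPKM over the 6 libraries, does not show this split, since Cd28 ran the other way (1.04 to 6.89 FPKM, lowest in WT replicate 1). The sum over 10 dendritic cell genes was 47.8 to 84.8 FPKM, of which Bst2, itself an interferon target, made up 41.9 to 71.3 FPKM, so that it says little about dendritic cells.

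Neutrophil genes had the largest median difference between the sets of all lists, in the other direction. All 8 tested had lower means in the MUT set (median log2 difference -1.55). By label 7 of 8 had positive log2 differences for CD40LΔ5 (median 0.12), though not all of these had a higher mean in FPKM. The sum over 10 neutrophil genes was 331 FPKM in WT replicate 3 and 582 FPKM in CD40LΔ5 replicate 3, and 44.9 to 81.4 FPKM in the other 4 libraries. Of the 10 GTPases, 3 were lowest in WT replicate 3 and 5 in CD40LΔ5 replicate 3, and the remaining 2 in CD40LΔ5 replicate 1, which had the lowest neutrophil sum. The share of all genes lowest in each of these libraries was not computed, so these counts cannot be set against it. Of all genes tested, 62.0% had a higher value in the MUT set, which holds none of these libraries. All 10 erythroid genes had higher means in the MUT set (median log2 difference 0.61). By label all 10 had negative log2 differences for CD40LΔ5 (median -0.31). The mean in FPKM was nevertheless higher in CD40LΔ5 for some of them, the most abundant included. The sum over the 10 erythroid genes was highest in CD40LΔ5 replicate 3 (1227 FPKM) and lowest in CD40LΔ5 replicate 1 (327 FPKM). No gene of these 6 lists was at 0 in all libraries, and their part in the GTPase values was not tested.

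The genes whose profile over the 6 libraries lay nearest to the mean profile of the members were Cd97, Tor3a, Cd38, Slc8b1, Ifi203, Tk2, Pyhin1 and Dpp4. The measure was the mean absolute difference of centred log2(FPKM + 1), and 7473 genes that averaged 5 FPKM or more were compared. Members, predicted genes (Gm and Rik names), genes with clone names and immunoglobulin segments were left out of these. It was 0.04 for Cd97, an adhesion receptor of leukocytes, and 0.06 for Dpp4, beside a median of 0.23 over all genes compared. Cd97 stood at 108, 88.7 and 75.1 FPKM in the WT libraries and at 78.6, 128 and 83.5 FPKM in the CD40LΔ5 libraries. Cd38, an ectoenzyme on the B cell surface, stood at 126, 107 and 95.5 FPKM and at 108, 155 and 103 FPKM. Among these 8, Ifi203 and Pyhin1 are interferon-inducible genes of the family of Aim2. The members themselves lay at 0.11 (Gbp7 and Irgm1) to 0.21 (Gbp3) from their mean profile. The 8 were picked as the nearest of all genes compared, so their smaller distances cannot be set against those of the members.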

How the data were processed

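Gene-level FPKM for each library, and a table of mean FPKM per group, were deposited by the authors. CASAVA 1.8.2, STAR and DESeq2 and the build mm9 are named, without a role, in the submitters' processing notes. Read counting is not given in the sources used here, and the library kit named in the labels' protocols does not mark the strand. FPKM times the deposited gene length gave whole reads for 100% of values (tolerance 0.01 reads). The gene length in bases is a column that the authors deposited, as another kind of value.

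limma 3.58.1 in R 4.3.3 (lmFit, eBayes with a trend) was run on log2(FPKM + 1) for the 11252 of 35275 genes that averaged 1 FPKM or more, two-sided, with Benjamini-Hochberg adjustment over all of them and a threshold of 0.05, by label and by the sets of the authors' table. The procedure was tested on simulated data. Ifng, below that level, had an exact permutation test.

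The members and the 13 other gene lists were chosen with earlier results of these data known. The rule for named genes took all members, the interferon-gamma signalling list, up to 4 genes per other list with the largest difference by the table, abundant cell type markers, and the 8 genes of nearest profile. Ciita, Cxcl9, Cxcl10, Gbp11, Irgm2, Ifnb1, Ifna4, Bst2 and the single T cell genes stand outside that rule and were named after their values were seen. Alternatives covered pseudocounts, filters, scalings, variance settings, voom on recovered reads, a replicate block and leaving out each library. Single-gene values of 2 genes of these lists are not reported here.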

Additional observations from a re-analysis of the deposited data

How the results depend on the processing

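No member passed an adjusted p of 0.05 with limma in either comparison under any alternative, and by label 0 genes of the whole table were called in every one. Between the sets of the authors' table all members tested had higher means in MUT under every alternative. By label the count of higher members changed when single libraries were left out, and the sign of every member turned in some such run. The count of all genes called between the sets was 3. It was 5 with a pseudocount of 0.1, 1 without a filter on low values, 0 with a mean of 5 FPKM or more, 6 with a robust variance prior and 1 with limma voom on recovered reads. At a mean of 5 FPKM or more, where 7 members were tested and Gbp6, Gbp7 and Gbp8 were not, 2 members lay above every library of the WT set, in place of 4. The cause of the other changes was not tested.

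Median ratio scaling turned the sign of Gbp3 by label (-0.0058) and, between the sets, of Ifngr1 (-0.0076), Socs1 (-0.0131) and Socs3 (-0.0099). Upper quartile scaling turned Socs1 (-0.0054) and Socs3 (-0.0024). Between the sets, the median log2 difference of all genes went from 0.0492 to 0.0061 with median ratio scaling and to 0.0141 with upper quartile scaling. By label it went from 0.0136 to -0.0092 and to 0.0036.

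Leaving out 1 library at a time gave 1 to 16 called genes between the sets: 1 without CD40LΔ5 replicate 2, 13 without WT replicate 2 and 16 without CD40LΔ5 replicate 1. Members with a higher mean by label numbered 1 to 9, those without overlap 0 to 2 by label (2 without WT replicate 1) and 4 to 9 between the sets. Log2 differences by label that changed sign ranged from -0.2049 to 1e-04 (Gbp2), -0.1582 to 0.3122 (Gbp3), -0.2186 to 0.3805 (Gbp4), -0.0665 to 0.2842 (Gbp5), -0.255 to 0.4463 (Gbp6), -0.048 to 0.3174 (Gbp7), -0.3277 to 0.1766 (Gbp8), -0.1288 to 0.3879 (Gbp9), -0.0051 to 0.3353 (Igtp) and -0.1315 to 0.4296 (Irgm1). Between the sets they ranged from -0.0736 to 0.1387 (Ifngr1), -0.0958 to 0.0549 (Ifngr2), -0.0098 to 0.1895 (Jak2), -0.0963 to 0.008 (Irf8), -0.1049 to 0.0248 (Irf2), -0.059 to 0.184 (Socs1) and -0.0653 to 0.1899 (Socs3).

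With a replicate block by label, 0 genes and 0 members were called and 8 of 10 members were higher. Deviations from the group means correlated between same-numbered libraries at -0.385, 0.058 and 0.376 (replicates 1, 2 and 3). WT replicate 1 correlated best with CD40LΔ5 replicate 2 (0.564). WT replicate 3 correlated best with CD40LΔ5 replicate 3, closely followed by CD40LΔ5 replicate 1 (0.355). Whether a shared number stands for anything more, such as a batch, is not given in the labels and was not tested. No paired analysis was possible between the sets of the table because they have only replicate number 1 in common.

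At 57 to 164 reads per library, Gbp8 carries the widest counting error of the members, and depth limits what can be said of Ifng and the type I interferon genes.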
